A study of Homo sapiens with 10 samples.

Results

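Fibronectin and 9 matricellular genes were followed in the RNA of ARPE-19 cells, an established human retinal pigment epithelium (RPE) line, under control and high glucose (HG) conditions. The members were FN1, THBS1, THBS2, THBS3, SPARC, TNC, POSTN, SPP1, CCN3 and CCN5. They were chosen by gene symbol with earlier results of these data known, so counts among them describe a chosen set. Each of the 10 had 1 row among the 22626 rows of the deposited read-count table. The control group received 5.5 mM D-glucose with 32 mM mannitol and the HG group 37.5 mM D-glucose, both for 48 h, with 5 libraries each. Mannitol matches the number of dissolved molecules, and no agent besides glucose and mannitol differs between the media in the labels. The labels do not say whether the 5 libraries of a group came from separate cultures, so the p-values measure the spread between these libraries only. Control libraries carry replicate numbers, whereas HG libraries are named by their deposited column (HG_1 to HG_5).

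Fibronectin is a large secreted glycoprotein that cells assemble into fibrils through integrins, and the fibrils serve as a scaffold for collagens and growth factors. Matricellular proteins are secreted into the same matrix but mainly modulate adhesion, protease activity and growth factor signalling instead of bearing load. In the eye, the RPE lays down and remodels the inner layers of Bruch's membrane, and thrombospondin-1 (THBS1) is known there as an inhibitor of new vessel growth and an activator of latent TGF-beta.

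Of the 10 members, 8 passed the filter on low counts and were tested with edgeR's quasi-likelihood method (Benjamini-Hochberg adjustment over all rows, SE standing for the standard error), and 4 of these had an adjusted p under 0.05, beside 15.4% of the 14936 rows tested. THBS1, SPARC and TNC were lower in the HG group (3 members, background 7.8% of rows lower), and CCN3 was higher (1 member, background 7.62% higher). The same 4 were the members whose HG and control libraries did not overlap, 3 lower (6.91% of all rows tested) and 1 higher (6.74%), or 13.6% of rows in either direction. FN1, THBS2, THBS3 and SPP1 did not pass, and POSTN and CCN5 had too few reads to be tested. The median log2 fold change of the 8 tested members was -0.25, beside 0.0013 for all rows tested. Counts of all 10 members together took between 0.453% and 0.613% of a control library (normalized) and between 0.301% and 0.344% of an HG library. In bulk RNA, fewer cells expressing a gene and less RNA per cell cannot be told apart.

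Total counts were between 32448991 and 45864176 per library, and a count of 3, the limit that a count of 0 allows, corresponds to between 0.0669 and 0.0912 CPM, the unit of counts scaled to library size. Control replicate 2 and HG_1 stood apart from the other 8 libraries. Gene levels relative to the other libraries rose there by 0.17 and 0.188 log2 units per 10 percentage points of GC content. The slopes of the remaining control libraries lay between -0.0439 and -0.00519, and those of the remaining HG libraries between -0.0916 and -0.0259. The members were refitted without both, which leaves the slopes of the other libraries in place, and the genes of the lists were not. Among RPE markers, OTX2 (96.2 CPM in the control group) and MITF (57.8) were expressed, as was RLBP1 of the visual cycle (10.98), while PMEL (3.59), TYRP1 (1.44) and LRAT (1.40) were low, RPE65 was at 0.0269 CPM and TTR had no count. The summed level of the 13 RPE markers was 2835 to 3592 CPM in control libraries and 1798 to 2472 in HG libraries, and of 10 tested 3 fell (KRT8, KRT18 and PMEL) and 0 rose, beside 7.8% of all rows tested that fell and 7.62% that rose. Most of that sum was KRT8 and KRT18, keratins of simple epithelia in general. BEST1 was uneven among the control libraries, from 0.577 to 551 CPM, against 0.981 to 7.79 in HG libraries, and did not pass (edgeR adjusted p = 0.067). Of 11 fibroblast markers, THY1 and LUM had no count in any library and 6 were under 1 CPM. Together they summed to 5866 to 6345 CPM in control libraries and 6045 to 7035 in HG libraries, mostly VIM. Of the 5 tested, 1 rose (FAP, log2 fold change 0.46, edgeR adjusted p = 0.00104), 3 fell (COL1A1, log2 fold change -1.33, PDGFRB and ACTA2) and VIM did not pass, beside the same shares of all rows. Of 6 endothelial markers 5 were under 1 CPM, with sums of 3.22 to 5.42 and 2.44 to 3.22 CPM, and of the 2 tested KDR fell (3.58 to 2.32 CPM, log2 fold change -0.63, edgeR adjusted p = 0.0452). Of 6 markers of glia or neurons SAG, SLC1A3 and NEFL had no count, and the sums were 233.7 to 258.6 and 241 to 288.3 CPM. Most of these sums came from TUBB3 (138 and 152 CPM in the control and HG groups) and GLUL (105 and 103). Neither passed (edgeR adjusted p = 0.364 and 0.843). The part of other cell types in the results was not tested. The annotation places other genes over THBS1 (FSIP1, AC037198.1 and AC037198.2), THBS2 (BX322234.1), THBS3 (MTX1 and AC234582.1), SPARC (CLMAT3), TNC (DEC1), CCN3 (AC021733.1) and CCN5 (KCNK15-AS1). The use of strand in counting is not known, so reads from the shared stretches cannot be assigned with certainty.

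Levels between genes were compared per transcript length, with the deposited FPKM values. SPARC was by far the most abundant member in the control group, at 648 ± 34.1 FPKM (SD, n = 5). FN1 (149 ± 24.2 FPKM) and THBS1 (134 ± 40.7) followed, with overlapping libraries. CCN3 (64.8 ± 6.97 FPKM) and SPP1 (53.2 ± 2.55) also overlapped each other, and THBS3 (6.62 ± 0.387), TNC (1.21 ± 0.359) and THBS2 (0.53 ± 0.134) lay below them without overlap. In the HG group the order differed. THBS1 was at 44.4 ± 8.40 FPKM and ranked 5 in place of 3, below CCN3 at 82.0 ± 4.90 and overlapping SPP1 at 61.9 ± 6.10. TNC (0.435 ± 0.122 FPKM) fell to the level of THBS2 (0.48 ± 0.0752), and the libraries of these 2 genes overlapped.

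**Figure D1:**
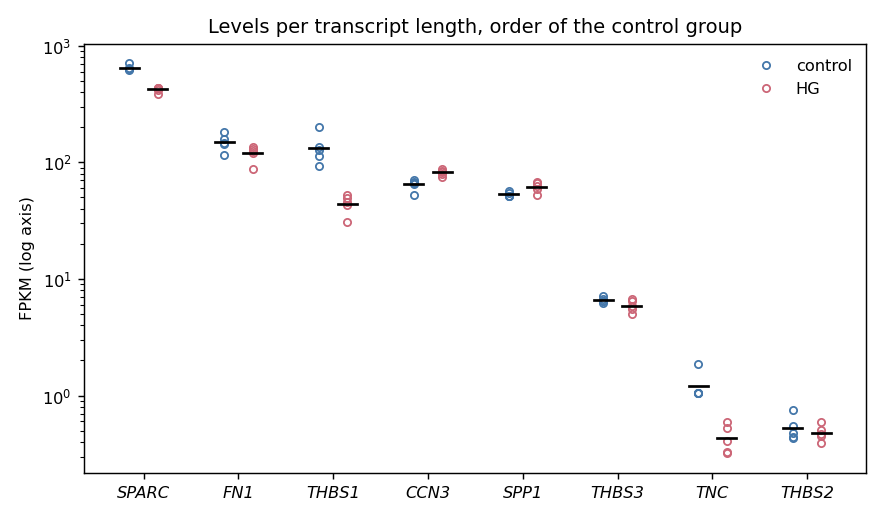
Levels of the 8 tested members in FPKM (vertical log axis) in the control (blue) and HG (red) libraries; each circle is 1 library and each bar the mean of 5. SPARC lies highest in both groups, and THBS1 moves from a mean of 134 to 44.4.

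THBS1 had the largest change of the 8 tested members. The gene (ENSG00000137801) lies on the plus strand of chromosome 15 from 39581079 to 39599466 in GENCODE release 29 (GRCh38). Its product is a trimeric glycoprotein that binds CD47, CD36 and integrins. In CPM, control replicates 1 to 5 held 1694, 808, 948, 1066 and 1127, and HG_1 to HG_5 held 270.04, 377, 355, 410.5 and 441. Every HG library was therefore below every control library, and control replicate 1 was the highest of all. The mean went from 1128 ± 339 to 371 ± 65.0 CPM (SD, n = 5 each), 3.04-fold lower. The log2 fold change was -1.61 (SE 0.195, edgeR adjusted p = 0.000446). On log2 CPM, a two-sided exact permutation test gave p = 0.00794, the smallest p that the 252 arrangements of 5 against 5 libraries allow. Without control replicate 1 the log2 fold change was -1.41, and without both control replicate 2 and HG_1 it was -1.61.

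The other thrombospondins did not pass the test. THBS2 (ENSG00000186340, minus strand of chromosome 6 from 169215780 to 169254044) encodes the closest relative of THBS1 by domain structure, also a trimer. Its control libraries held 2.79, 3.07, 3.44, 3.99 and 2.70 CPM and its HG libraries 3.30, 2.76, 2.41, 3.68 and 2.95, so the groups overlapped throughout. Its log2 fold change was -0.08 with a 95% interval from -0.44 to 0.27 (edgeR adjusted p = 0.797). THBS3 (ENSG00000169231, minus strand of chromosome 1 from 155195588 to 155209051) encodes a pentameric member without the domain that activates TGF-beta. The control libraries held 21.5, 24.2, 22.7, 20.1 and 21.7 CPM of THBS3 and the HG libraries 22.4, 19.1, 22.3, 17.5 and 16.6. Here HG_1 and HG_3 lay within the control range and HG_2, HG_4 and HG_5 below it. The log2 fold change of THBS3 was -0.17 (95% interval -0.38 to 0.04, edgeR adjusted p = 0.287).

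The thrombospondins were compared with ratios within each library, which scaling to library size cannot change beyond the added prior count. In all 8 such ratios were computed, chosen after the values had been seen. The exact permutation p-values of 7 were adjusted over these by the Benjamini-Hochberg method, and that of CCN3 to CCN2 was not tested. Since the pairs were picked for values already seen, these p-values describe the separation of the libraries and are no independent evidence. The log2 ratio of THBS1 to THBS2 counts was 8.41 ± 0.531 in the control group and 6.91 ± 0.363 in the HG group, a difference of -1.5 (exact permutation p = 0.00794, adjusted p = 0.0139). That of THBS1 to THBS3 differed by -1.40 (exact permutation p = 0.00794, adjusted p = 0.0139). The ratio of THBS2 to THBS3 differed by 0.094 (exact permutation p = 0.635, adjusted p = 0.635), and its libraries overlapped between the groups.

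**Figure D2:**
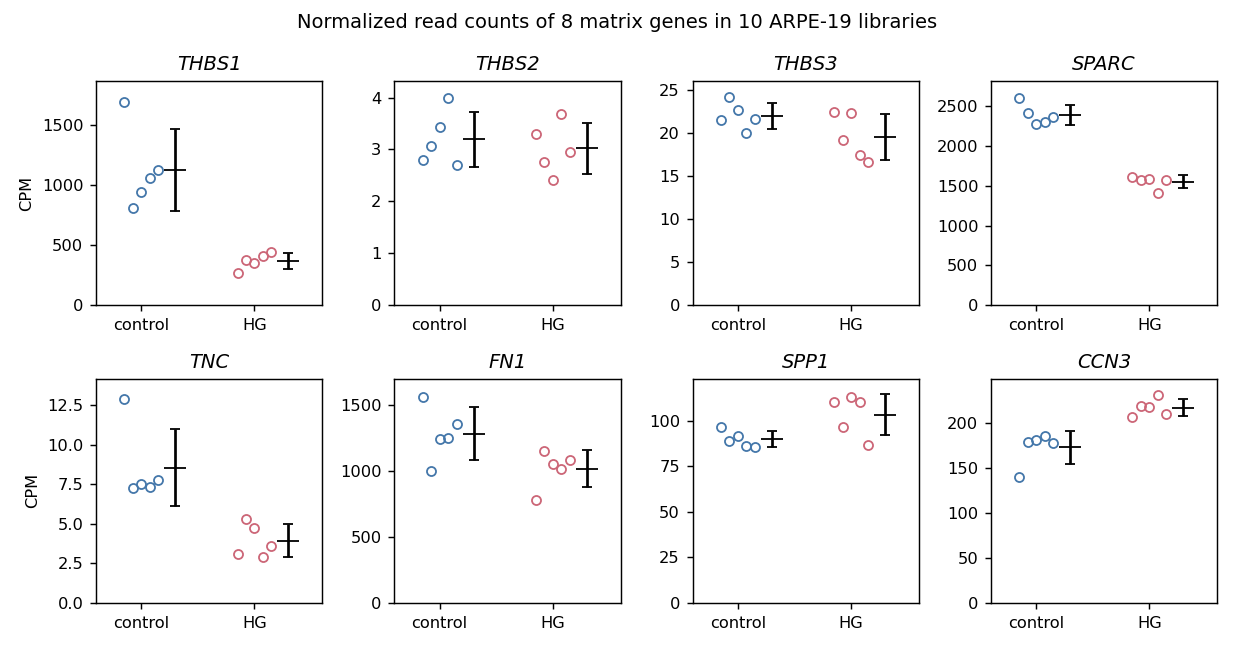
Normalized read counts (CPM, vertical axes from 0) of the 8 tested members in the 5 control (blue) and 5 HG (red) libraries, with the mean and SD of each group in black. The groups do not overlap for THBS1, SPARC, TNC and CCN3.

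Of the 4 members that passed, SPARC had the smallest standard error relative to its log2 fold change. The gene (ENSG00000113140, minus strand of chromosome 5 from 151661096 to 151687165) encodes osteonectin, a calcium- and collagen-binding protein of basement membranes. Control replicates 1 to 5 held 2599.6, 2414.5, 2276, 2304 and 2363 CPM, and HG_1 to HG_5 held 1612, 1571, 1589, 1408 and 1577. All HG libraries were thus below all control libraries. SPARC fell from 2392 ± 128 to 1552 ± 81.7 CPM (SD, n = 5 each), 1.54-fold. Its log2 fold change was -0.62 (SE 0.052, edgeR adjusted p = 6.97e-05), and it was between -0.64 and -0.59 with any 1 library left out.

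TNC encodes tenascin-C, a hexameric protein that is low in most adult tissues and is induced in wounds (ENSG00000041982, minus strand of chromosome 9 from 115019578 to 115118257). Its reads were few, with 242 to 425 counts per control library and 95 to 219 per HG library. In CPM the control libraries held 12.9, 7.29, 7.55, 7.32 and 7.79, and the HG libraries held 3.12, 5.31, 4.77, 2.89 and 3.62. Control replicate 1 lay far above the other control libraries, but the other 4 were also above every HG library. TNC fell from 8.57 ± 2.42 to 3.94 ± 1.05 CPM (SD, n = 5 each), with a log2 fold change of -1.12 (SE 0.219, edgeR adjusted p = 0.00611). Without control replicate 1 it was -0.92 (edgeR adjusted p = 0.0106). On the log2(FPKM + 1) scale, which understates changes at this level, it was -0.62, and on the log2(FPKM + 0.1) scale it was -1.29.

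FN1 (ENSG00000115414, minus strand of chromosome 2 from 215360440 to 215436172) was lower on average in the HG group but did not pass the test. Control replicates 1 to 5 held 1564, 1003, 1242.5, 1248 and 1358 CPM, and HG_1 to HG_5 held 779.6, 1148, 1056, 1013 and 1084. The overlap came from control replicate 2, the lowest control library, which 4 of the HG libraries exceeded. The means were 1283 ± 203 and 1016 ± 141 CPM (SD, n = 5 each), and the log2 fold change was -0.34 (95% interval -0.61 to -0.062, edgeR adjusted p = 0.0971). The lowest library of each group, control replicate 2 and HG_1, was one of the pair with the GC trend. Without both, the log2 fold change was -0.33 and passed (adjusted p = 0.011), and with the GC and length trends of every library removed it was -0.28 and also passed (adjusted p = 0.0325). It also passed with DESeq2 (adjusted p = 0.0365), with 1 surrogate variable (adjusted p = 0.00353) and without control replicate 2 alone (-0.41, adjusted p = 0.033), but not in the other 18 settings. The gene has 27 annotated transcripts, and its splice forms were not analysed here.

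FN1 was set against the members that fell. The log2 ratio of THBS1 to FN1 counts went from -0.22 ± 0.195 to -1.46 ± 0.15 (SD, n = 5 each), so THBS1 was lower relative to FN1 in the HG group (exact permutation p = 0.00794, adjusted p = 0.0139 over the 7 ratios). TNC to FN1 likewise differed by -0.78 (exact permutation p = 0.00794, adjusted p = 0.0139). SPARC to FN1 differed by -0.29, which did not pass (exact permutation p = 0.0714, adjusted p = 0.1).

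**Figure D3:**
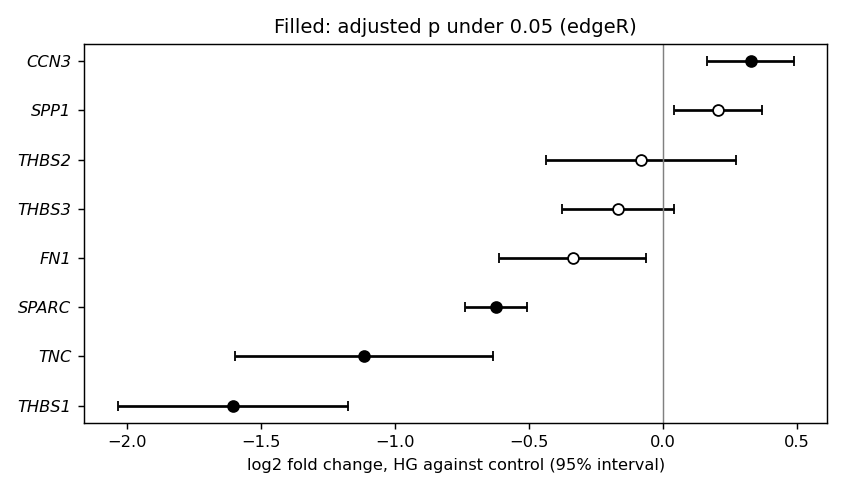
Log2 fold changes of the 8 tested members, HG against control (horizontal axis), with 95% intervals from edgeR; filled circles have an adjusted p under 0.05. THBS1 (-1.61), TNC (-1.12) and SPARC (-0.62) lie to the left of 0 and CCN3 (0.33) to the right.

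The stretch before the gene start is shown for FN1 and for the members that fell, THBS1 and TNC, to let their promoters be compared; that of SPARC is left out because its window lies within the annotated gene. RefSeq promoter windows (GRCh38.p14) were matched for 8 of the 10 members, and the 250 bases before each start were searched on both strands for 7 short motifs. The core promoter motifs were the TATA box, spelled TATAAA, the CCAAT box, searched by its name's letters, and the GC box, spelled GGGCGG. The others were the E-box (letters CACGTG), the site of AP-1 factors (letters TGACTCA), the site of TEAD factors (letters GGAATG) and the element of SMAD proteins (letters CAGACA). Capitals mark these letters in either orientation, neighbouring GC boxes can overlap, and only bases before the outermost annotated start are printed. The stretches are chr15:39580829-39581078 on the plus strand, chr9:115118258-115118407 on the minus strand and chr2:215436173-215436318 on the minus strand.
THBS1: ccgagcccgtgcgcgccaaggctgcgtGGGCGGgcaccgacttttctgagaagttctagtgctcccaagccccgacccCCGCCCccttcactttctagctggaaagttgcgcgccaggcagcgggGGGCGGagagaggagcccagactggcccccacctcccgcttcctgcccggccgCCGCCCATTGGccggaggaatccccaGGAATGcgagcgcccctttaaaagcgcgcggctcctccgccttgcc
TNC: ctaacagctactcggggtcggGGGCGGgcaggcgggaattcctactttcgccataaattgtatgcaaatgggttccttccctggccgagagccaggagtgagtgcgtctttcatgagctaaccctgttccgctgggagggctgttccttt
FN1: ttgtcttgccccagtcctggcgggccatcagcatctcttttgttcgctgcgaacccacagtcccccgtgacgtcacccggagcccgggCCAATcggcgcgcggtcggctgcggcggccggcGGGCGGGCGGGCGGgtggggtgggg

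Within the 250 bases, THBS1 held 4 GC boxes, a CCAAT box and a TEAD match at 46 to 41 bases before the start. FN1 held 6 GC boxes and a CCAAT box, TNC a GC box and a SMAD match, and SPARC a TEAD match only. Some of these matches lie at least partly within the annotated gene and are not marked above. They are the FN1 GC boxes beginning 107, 102 and 49 bases before the start, TNC's SMAD match and SPARC's TEAD match. TEAD letters were also found in the window of THBS2, SMAD letters in those of THBS2 and SPP1, and GC and CCAAT boxes in that of THBS3. None of these members passed the test. No motif was common to THBS1, TNC and SPARC. Of all 35116 promoter windows of the same length, 42.6% held a GC box, 32% a CCAAT box, 11.9% a TEAD match and 13.6% a SMAD match. E-box letters, in 6.34% of all windows, were found in none of the 8.

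CCN3 was the member that rose. It encodes NOV, a cysteine-rich secreted protein of the CCN family that often opposes CCN2 (ENSG00000136999, chromosome 8). Control replicates 1 to 5 held 141, 179, 181, 186 and 178 CPM, and HG_1 to HG_5 held 207, 219, 218, 231 and 210.2. Control replicate 1 lay below the other control libraries, and all HG libraries were above all control libraries. The mean went from 173 ± 18.4 to 217 ± 9.38 CPM (SD, n = 5 each), 1.25-fold higher, with a log2 fold change of 0.33 (SE 0.073, edgeR adjusted p = 0.0122). Without control replicate 1 it was 0.26 (edgeR adjusted p = 0.00446). The change was under the fold of 1.5 that the study names as its limit, which THBS1, SPARC and TNC passed (2.02% of rows tested were lower at that fold with an adjusted p under 0.05, and with an unadjusted p under 0.05 it was 2.89% lower and 2.28% higher).

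CCN2, which is no member, belongs to the same family, and was set against CCN3 after its values had been seen. CCN2 encodes connective tissue growth factor, and it fell from 386 ± 69.5 to 157 ± 10.2 CPM (SD, n = 5 each), with a log2 fold change of -1.29 (edgeR adjusted p = 6.97e-05). The log2 ratio of CCN3 to CCN2 counts was between -1.84 and -0.89 in the control libraries and between 0.29 and 0.62 in the HG libraries. CCN2 counts thus outnumbered CCN3 counts in every control library and CCN3 counts outnumbered CCN2 counts in every HG library. The mean ratio differed by 1.61 between the groups, given as a description without a test, since neither gene's groups overlapped and the genes moved in opposite directions. CCN1, which like CCN2 promotes adhesion, had a smaller log2 fold change of -0.22 (edgeR adjusted p = 0.00818).

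SPP1 encodes osteopontin, an integrin- and CD44-binding phosphoprotein (ENSG00000118785, plus strand of chromosome 4 from 87975650 to 87983426). Its control libraries held 96.5, 89.0, 91.7, 86.3 and 85.9 CPM and its HG libraries 110.1, 96.8, 113.2, 110.5 and 87.0. Of the HG libraries 4 were above all control libraries, and HG_5 lay among the lowest control values. The log2 fold change was 0.20 (95% interval 0.039 to 0.37) and did not pass (edgeR adjusted p = 0.0939). Without HG_5 it was 0.26 and passed (adjusted p = 0.0207), and after the GC and length correction it was 0.13 (adjusted p = 0.242). SPP1 is also a macrophage gene. Of 8 macrophage and leukocyte markers, AIF1, CD163 and TYROBP had no count and PTPRC was at 0.0276 and 0.0226 CPM in the 2 groups. CSF1R was detected in every library, at 6.57 ± 0.864 CPM without and 4.86 ± 0.681 with high glucose (SD, n = 5 each), and did not pass (log2 fold change -0.43, edgeR adjusted p = 0.0502). Their summed level was 60.6 to 88.6 CPM in control libraries and 105.5 to 149 in HG libraries, mostly CD68, a lysosomal protein that other cells also make. CD68 had a log2 fold change of 0.70 (edgeR adjusted p = 0.00311), and its part in the SPP1 values was not tested.

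POSTN and CCN5 were barely detected. POSTN encodes periostin, a protein of fibrous tissue (ENSG00000133110, minus strand of chromosome 13 from 37562583 to 37598844), and had 8, 0, 3, 3 and 3 counts in the control libraries and 0, 0, 0, 0 and 4 in the HG libraries. CCN5 encodes a CCN protein that lacks the C-terminal domain of its relatives (ENSG00000064205, plus strand of chromosome 20 from 44714844 to 44728509), and had 0, 4, 7, 0 and 0 counts against 4, 0, 2, 0 and 0. Only a few of these counts exceed 3, the limit that a count of 0 allows, and a difference between the groups was not detectable at this depth.

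The wider gene lists around the members were counted in the same fit. They were written with earlier results of these data known. Of 30 other matricellular genes 17 were tested, of which 8 fell, 0 rose and 9 did not pass, beside 7.8% of all rows tested that fell and 7.62% that rose. The list's median log2 fold change was -0.27, beside 0.0013 for all rows. Besides CCN2, the largest changes were those of FSTL1, a SPARC relative (-0.76, from 787 ± 95.9 to 464 ± 51.3 CPM), FBLN2, a fibulin (-0.75, from 40.2 ± 3.84 to 23.9 ± 2.68), and VTN, the adhesion protein vitronectin (-0.64, from 26.1 ± 3.25 to 16.8 ± 3.81), with adjusted p of 0.000589, 0.000443 and 0.0154 from edgeR. The list's genes with the highest levels were TGFBI, an adhesion protein of the cornea and RPE, at 1159 FPKM in the control group (log2 fold change -0.27, edgeR adjusted p = 0.00592), and the galectin LGALS1 at 943 FPKM (0.04, adjusted p = 0.872).

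Receptors of the members were divided. Of 23 genes 19 were tested, of which 4 rose (7.62% of all rows tested did), 4 fell (7.8% of all rows) and 11 did not pass, with a median log2 fold change of -0.06. CALR encodes calreticulin, through which THBS1 can loosen adhesions together with LRP1. CALR fell by 0.51 on the log2 scale (1898 ± 144 to 1332 ± 139 CPM, edgeR adjusted p = 0.00142). Its RNA does not show how much of the protein acts as a receptor. LRP1, a scavenger receptor, had a log2 fold change of -0.24 (edgeR adjusted p = 0.00246). CD44, which binds osteopontin and hyaluronan, rose by 0.26 (438 ± 9.00 to 524 ± 29.6 CPM, edgeR adjusted p = 0.00314), and ITGB5, the beta chain of a vitronectin receptor, by 0.22 (adjusted p = 0.00661). Of the fibronectin receptor chains ITGA5 fell (log2 fold change -0.18, edgeR adjusted p = 0.016), while ITGB1, at 454 FPKM in the control group, was at -0.02 (adjusted p = 0.934).

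Of 25 genes of fibronectin assembly and its partners 22 were tested, of which 12 fell (7.8% of all rows tested did), 0 rose (7.62% of all rows) and 10 did not pass, with a median log2 fold change of -0.25. The list also holds genes of focal adhesions and the cytoskeleton. Of these TNS1, TLN1, FLNA, PXN, ILK and FERMT2 are among the 12 that fell, and VCL, RHOA and ROCK1 did not pass. ELN, which encodes elastin, had the largest change (-1.60, edgeR adjusted p = 0.019) at a low level, 2.08 ± 0.692 CPM without and 0.683 ± 0.389 with high glucose. BMP1, the procollagen C-proteinase, fell from 273 ± 17.2 to 156 ± 17.4 CPM (log2 fold change -0.81, edgeR adjusted p = 0.000123). FBN1, the microfibril protein fibrillin-1, was at -0.73 (adjusted p = 0.00361) and LOXL1, an elastin cross-linking enzyme, at -0.57 (adjusted p = 0.00402). FLNA, an actin cross-linker and the list's most abundant gene at 514 FPKM, had a log2 fold change of -0.28 (edgeR adjusted p = 0.000908), and the small GTPase RHOA, at 326 FPKM, was at -0.06 (adjusted p = 0.265).

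**Figure D4:**
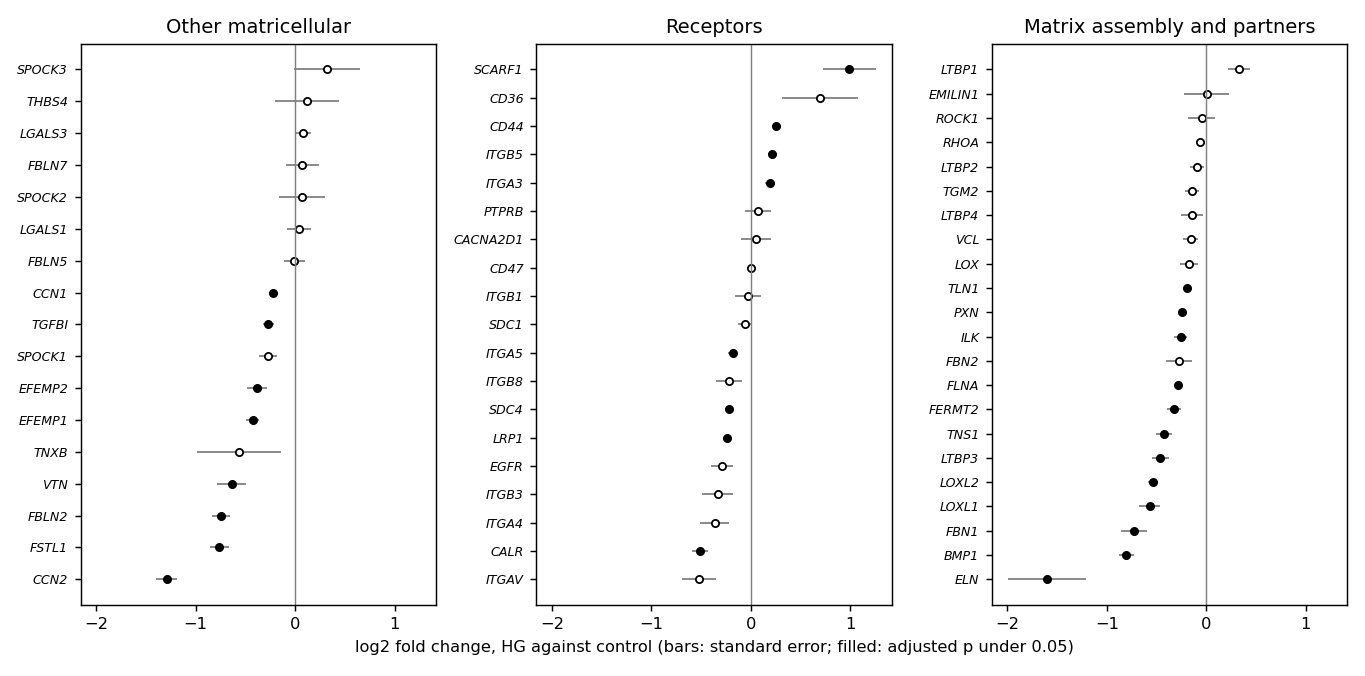
Log2 fold changes of the tested genes of 3 lists, HG against control (horizontal axes), with standard errors as bars; filled circles have an adjusted p under 0.05 from edgeR. Of the filled circles, all 8 in the first and all 12 in the third panel lie to the left of 0, and the second panel holds 4 on each side.

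The calls of the members were recomputed under 23 other settings, 10 of which left out 1 library each. THBS1, SPARC, TNC and CCN3 passed with an unchanged direction in every setting that gave a value. With 1 library left out, THBS1 ranged from -1.70 to -1.41, TNC from -1.25 to -0.92 and CCN3 from 0.26 to 0.36.

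**Figure D5:**
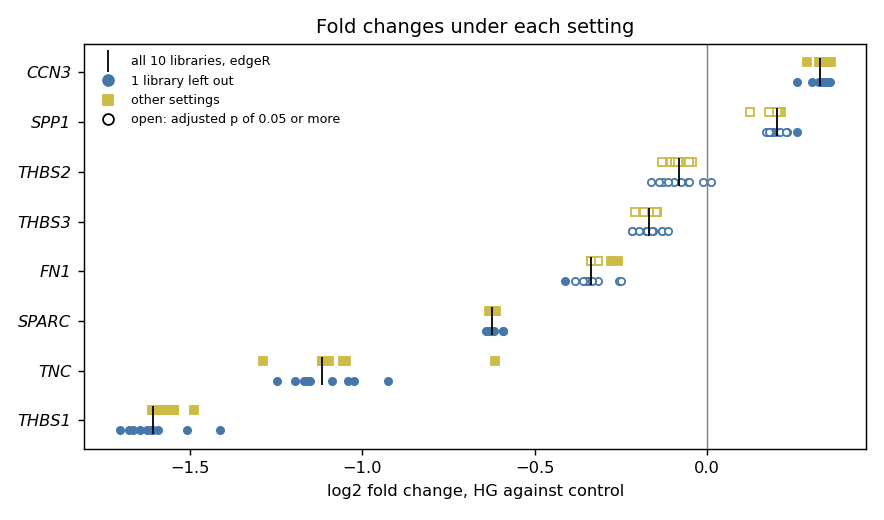
Log2 fold change of each tested member (horizontal axis) with all 10 libraries (black line), with 1 library left out (blue circles) and under the other settings (yellow squares); open symbols have an adjusted p of 0.05 or more. The symbols of THBS1, TNC, SPARC and CCN3 are all filled, and those of FN1 are partly filled.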

How the data were processed

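RNA of ARPE-19 cells was extracted with Trizol and sequenced in 10 libraries. The authors deposited whole-number read counts per gene, without normalization, and FPKM values of the same libraries, scaled to library size and to transcript length. The submitters' processing notes name fastp 0.20.1, HISAT2 2.2.1 and GRCh38; the counting program, annotation and use of strand are not given in the sources used here. Some rows are named MSTRG and hold no gene name.

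Counts were compared with R 4.3.3 and edgeR 4.0.16 (default low-count filter, TMM normalization, quasi-likelihood test), with Benjamini-Hochberg adjustment over all 14936 rows tested and a threshold of 0.05. Standard errors are the log2 fold change divided by the square root of the F statistic. Log2 CPM used a prior count of 2. Single genes and ratios were also compared with two-sided exact permutation tests. Levels between genes used FPKM. GENCODE release 29 gave positions, length and GC content. Of the 10 members, 0% of the 100-base windows of the longest coding transcript occurred in transcripts of another gene. Within a group, the 20 pairs of libraries differed by more than sampling noise (chi-square per gene between 13.8 and 78.5).

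All members are named. Of each list, the 4 largest changes that passed with a mean of at least 1 CPM and the 2 highest levels are named; other genes were chosen after their values were seen. Of the lists as first written, 2 genes are not reported here and were removed before counting. The members and lists were chosen with earlier results of these data known. Alternatives were DESeq2 1.42.0, other scalings, filters and tests, limma 3.58.1 on log2(FPKM + 1) and log2(FPKM + 0.1), 1 surrogate variable (sva 3.50.0), a GC and length correction (lowess, span 0.3), the removal of MSTRG rows and of libraries. The steps were tested on simulated counts. Limits from counts cover counting error only.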

Additional observations from a re-analysis of the deposited data

Results flagged for a closer look

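In 18 groups of 5 values (8 members and the total counts, each in both conditions), 3 held a library far from the other 4, and chance flags about 1 in 20 groups. TNC in control replicate 1 stood at 12.9 CPM, and its 4 companions held 7.29 to 7.79. CCN3 in the same library stood at 141 CPM, below the 178 to 186 of the rest. SPARC in HG_4 stood at 1408 CPM, below the 1571 to 1612 of the remaining HG libraries. Without control replicate 1, both TNC (log2 fold change -0.92) and CCN3 (0.26) still passed the test.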

How the results depend on the processing

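Of 182 recomputed log2 fold changes of the 8 tested members, 175 kept their direction and their side of the threshold, 6 passed it newly, 0 lost it and 1 changed sign. FN1 passed newly in 5 settings, with log2 fold changes between -0.41 and -0.26, and SPP1 in 1, without HG_5 (0.26). THBS2, which never passed, ranged from -0.16 to 0.010 with 1 library left out, the last without control replicate 4. THBS2 and TNC fall below the filter on a mean FPKM of 1 and have no value there. The members higher in the HG group numbered 1, between 1 and 2 with 1 library left out, and 0 by the limits the study states, because the change of CCN3 is under 1.5-fold; those lower numbered 3, and 2 to 4 across all settings. Over all rows, 2303 passed an adjusted p under 0.05, and 4923 did with 1 surrogate variable, 3965 with the GC and length correction and 4035 without both control replicate 2 and HG_1; the cause was not tested. Past a fold of 1.5 with p under 0.05 were 772 rows, and 728 with limma on log2(FPKM + 0.1). With limma on log2(FPKM + 1), where the added 1 shrinks fold changes of low genes, there were 304. With the mean FPKM filter added there were 285. The cause of the lower counts was not tested. No paired analysis was possible because the titles give the groups no shared replicate numbers and nothing says that the numbers of the deposited columns mark pairs. TNC had only 95 to 425 counts per library.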

Other observations

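Over the 10 libraries, the genes whose log2 CPM was most like that of FN1, among 9981 others with a mean of at least 10 CPM, were PLA2R1 (Pearson's r = 0.985), CTNND1 (0.985) and ITGAV (0.983). PLA2R1 encodes a phospholipase A2 receptor, CTNND1 the cadherin partner p120-catenin and ITGAV an integrin alpha chain that pairs with ITGB5. ITGAV held 512 CPM without and 357 with high glucose and did not pass the test (edgeR adjusted p = 0.0604). For THBS1 they were the adhesion gene CADM1 (0.995), the ephrin EFNB2 (0.994) and LRRN1 (0.994). CADM1 held 83.0 and 48.4 CPM in the same order, EFNB2 at 68.8 and 38.1, and LRRN1 at 477 and 235. These are descriptions over libraries that include the group difference and the GC trend of control replicate 2 and HG_1.

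After the group means were subtracted, the correlations of the 28 pairs among the 8 tested members over the 10 libraries ran from -0.823 (SPARC with CCN3) to 0.891 (FN1 with THBS1). These 2 pairs are the extremes and are given as descriptions, and the genes of a pair share each library's depth and scaling. SPARC in HG_4 and CCN3 in control replicate 1 are among the values that lay far from their groups. Control replicate 1 was the highest control library for FN1, THBS1, TNC, SPARC and SPP1 and the lowest for CCN3.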
